A study of Zea mays with 18 samples.

Results

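Maize carries a small family of kinases that act on phosphoenolpyruvate carboxylase (PEPC), and 3 of them are described here: kinase2 (Zm00001d051156), kinase3 (Zm00001d017270) and kinase4 (Zm00001d003068). They are 3 of the 4 genes that the deposited table names as PEPC kinases and 3 of the 50118 genes it lists. The 3 were picked by gene identifier with their levels in these same 18 libraries known, so their differences between times are given as a description with no test. The remaining one, kinase1 (Zm00001d018429), was not picked and is given for comparison.

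The libraries are RNA-seq of seedling leaf from the inbred line B73 and from a zmzfp69 line, sampled at 0, 24 and 48 h, with 3 libraries in each of the 6 groups. Seedlings were raised at 25 °C under 16 h of light, the cold was 4 °C, and a replicate pooled 50 seedlings. Time, genotype and replicate come from the titles, which call the line a mutant in B73, whereas another field calls it a knock-down. The 0 h samples were taken as those before the cold, although their treatment field also names 4 °C, and the description of some mutant replicates at 24 and 48 h says 0 h. No group stayed warm for 24 or 48 h, so cold and elapsed time cannot be told apart, and all groups share the B73 background, the growth conditions and the seedling stage. The sources used here do not describe the zmzfp69 allele, and no gene of the table is named zfp69 (0 matches), so the targeted gene was not checked.

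PEPC fixes bicarbonate onto phosphoenolpyruvate to make oxaloacetate, the first step of carbon capture in the mesophyll of C4 leaves. The enzyme is inhibited by malate, its downstream product, and PEPC kinase phosphorylates a serine near the amino terminus of PEPC, which makes it less sensitive to malate. PEPC kinase is little more than a protein kinase catalytic domain, related to the calcium-dependent kinases but without their calcium-binding part, and its activity is known to follow its own synthesis and turnover. In C4 leaves that activity is high in the light and low in the dark.

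In the table's coordinates, for which the sources used here name no build, kinase2 lies on chromosome 4 from 146401256 to 146402641 on the plus strand. The kinase3 gene lies on chromosome 5 from 191243684 to 191245128, also on the plus strand. The kinase4 gene lies on chromosome 2 from 31084436 to 31085836, on the plus strand, and kinase1 on chromosome 5 from 220588216 to 220589696, on the minus strand. No other gene of the table overlaps any of the 4. The table's best protein match is Arabidopsis PPCK1 for kinase2 and kinase4 and Arabidopsis PPCK2 for kinase3 and kinase1. Gene lengths used for FPKM were 1269, 1345, 1238 and 1402 bases for kinase2, kinase3, kinase4 and kinase1. FPKM divides fragments by the length of the gene and the size of the library, and is thus a level per length, so the kinases can be compared with each other within a library.

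Depth was 14.8 to 19.1 M recovered reads per library. The leaf label fits the markers: chlorophyll a-b binding proteins (24 of 31 listed genes tested) summed to 2579 to 42183 FPKM, and the Rubisco small subunits to 1748 to 17838 FPKM. Meristem homeobox genes of the knotted1 type stood at or near 0 in every library (at most 0.0141 FPKM summed), root cap proteins at 5.03 to 25.3 FPKM, and Casparian strip membrane proteins at no more than 6.56 FPKM. The first principal component of all tested genes carried 42.2% of the variance. On it the 0 h libraries lay between -103.3 and -89.9, and mutant 24 h replicate 2 lay at -68.6, against 25.6 and 40.6 for the other mutant 24 h libraries. B73 48 h replicate 1 lay at 106.4, against 46.6 and 45.3 for the other B73 48 h libraries. Both libraries also stand apart in the kinases, and the kinase differences that rest on them are also given without them or as leave-one-out ranges.

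Before the cold, kinase2 was barely expressed. It stood at 1.39, 1.31 and 0.961 FPKM in B73 and at 2.64, 2.73 and 4.72 FPKM in the mutant, from between 21 and 130 reads a library. After 24 h in B73 it stood at 949, 775 and 354 FPKM, and after 48 h at 2508, 306 and 127 FPKM. In the mutant it stood at 353, 33.2 and 655 FPKM after 24 h and at 765, 920 and 877 FPKM after 48 h. Every cold library was above every 0 h library, and the lowest B73 value at 24 h was 254 times the highest at 0 h. Among all genes of a library by FPKM it ranked 50 to 279 in B73 at 24 h, 34 to 695 in B73 at 48 h, 140 to 2110 in the mutant at 24 h and 142 to 149 in the mutant at 48 h, whereas at 0 h it ranked between 11480 and 18928.

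The mean of kinase2 in B73 went from 1.22 ± 0.229 FPKM (SD, n = 3) at 0 h to 693 ± 306 FPKM at 24 h. On the log2(FPKM + 1) scale, which understates differences of low genes, kinase2 was higher by 8.18 (SE 0.98) in B73 at 24 h and by 7.71 at 48 h. In the mutant it was higher by 5.55 and 7.64. Ordered from the largest rise among the 23141 genes tested, these differences ranked 2 and 4 in B73 and 8 and 6 in the mutant. Those of kinase3 ranked 9 and 31 in B73 and 3 and 50 in the mutant. Those of kinase4 ranked 121 and 91 in B73 and 130 and 46 in the mutant. The kinases were picked with these levels known, so the ranks only describe them. Between 24 and 48 h the log2 difference of kinase2 was -0.47 in B73, where the ranges overlapped, and 2.10 in the mutant, where they did not.

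**Figure D1:**
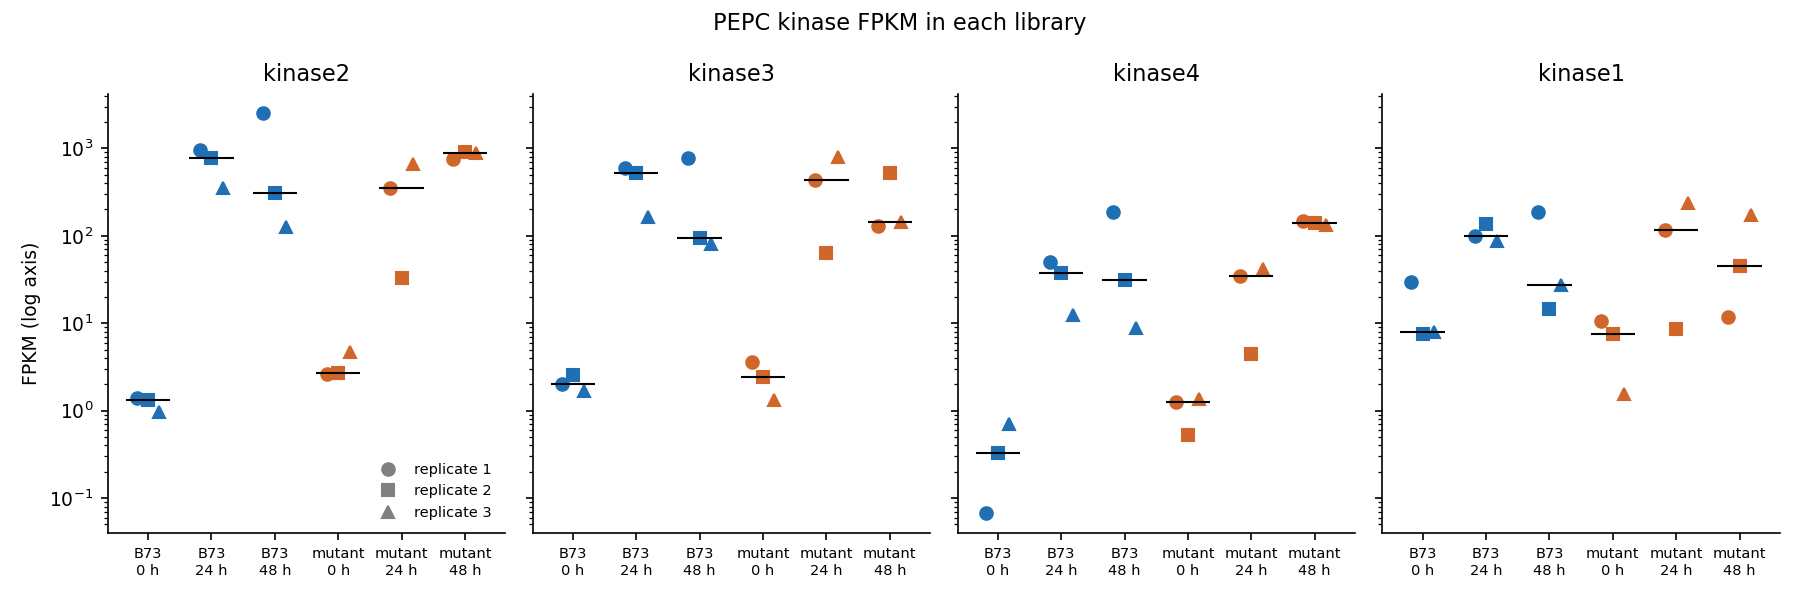
FPKM of the 4 PEPC kinases (log axis) in each of the 18 libraries, with B73 in blue and the mutant in orange, a marker shape for each replicate number and a black line at each group's median. Every cold library of kinase2, kinase3 and kinase4 lies above every 0 h library of the same gene, mutant 24 h replicate 2 is the lowest of its group in all 4 panels, and B73 48 h replicate 1 is the highest of its group in all 4.

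The level of kinase3 was also low at 0 h and high in the cold. At 0 h it stood at 2.00, 2.56 and 1.68 FPKM in B73 and at 3.62, 2.45 and 1.34 FPKM in the mutant. In B73 it stood at 592, 525 and 163 FPKM after 24 h and at 769, 95.6 and 81.2 FPKM after 48 h. In the mutant the 24 h values were 438, 63.0 and 805 FPKM and the 48 h values 129, 523 and 145 FPKM. The 24 h and 48 h ranges overlapped in both genotypes, and the lowest cold library, at 63.0 FPKM, was above every 0 h library. The log2 difference from 0 h in B73 was 6.92 (SE 0.92) at 24 h and 5.90 at 48 h. For the mutant these were 6.40 and 6.01. From 24 to 48 h the log2 difference was -1.02 in B73 and -0.39 in the mutant.

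The lowest of the 3 was kinase4. At 0 h it stood at 0.0679, 0.328 and 0.704 FPKM in B73, from 2, 10 and 15 reads, and at 1.26, 0.525 and 1.38 FPKM in the mutant. In B73 it stood at 49.9, 37.3 and 12.4 FPKM after 24 h and at 185, 31.6 and 8.83 FPKM after 48 h. The mutant values were 34.9, 4.47 and 42.1 FPKM after 24 h and 148, 139 and 132 FPKM after 48 h. The 3 mutant 48 h libraries lay close together and above all 6 cold libraries of B73 other than replicate 1 at 48 h. The log2 difference of kinase4 from 0 h was 4.47 (SE 0.87) at 24 h and 4.86 at 48 h in B73. For the mutant these were 3.34 and 6.12. From 24 to 48 h the log2 difference was 0.40 in B73 and 2.78 in the mutant. With so few reads at 0 h these sizes depend on the pseudocount: with 0.1 in place of 1 FPKM the B73 log2 differences were 6.21 and 6.60.

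Outside the chosen 3, kinase1 had the highest level of the family in 5 of the 6 libraries at 0 h, and its libraries spread widely within groups. It stood at 29.9, 7.52 and 7.91 FPKM in B73 and at 10.5, 7.60 and 1.54 FPKM in the mutant at 0 h. In B73 it stood at 100, 138 and 88.2 FPKM after 24 h and at 189, 14.6 and 27.2 FPKM after 48 h. The mutant values were 117, 8.67 and 235 FPKM after 24 h and 11.7, 44.7 and 173 FPKM after 48 h. Against 0 h the log2 difference of kinase1 was 3.02 in B73 at 24 h (limma with Benjamini-Hochberg adjustment, adjusted p = 0.121) and 1.72 at 48 h (adjusted p = 0.304). In the mutant it was 3.35 (adjusted p = 0.0806) and 2.88 (adjusted p = 0.0657), so kinase1 passed the threshold of 0.05 in none of these. Its difference in the mutant at 24 h was still about that of the chosen kinase4, at 3.34. Ordered from the largest rise among all tested genes, these ranked 128 and 130. Elsewhere kinase1 ranked lower than kinase4, at 413 and 1877 against 121 and 91 in B73, and 1021 against 46 in the mutant at 48 h. The range of kinase1 lay above that at 0 h in B73 at 24 h and in the mutant at 48 h. It overlapped that at 0 h in B73 at 48 h and in the mutant at 24 h. How many of all tested genes have separate ranges was not counted, and the shares that follow are of genes that passed the threshold. In these 4 comparisons the share of all tested genes called higher was 5.26% (B73, 24 h), 12.7% (B73, 48 h), 3.76% (mutant, 24 h) and 18.5% (mutant, 48 h). The 3 chosen kinases were picked for their levels over these times, so they are not set against those shares.

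With a different gene in the lead, the make-up of the family's transcripts was not the same before and in the cold. The chosen kinases were picked with these levels known and kinase1 was left out, so this is a description. The mean of kinase1 itself went from 15.1 FPKM at 0 h to 109 and 77.0 FPKM at 24 and 48 h in B73. In the mutant it went from 6.56 to 120 and 76.5 FPKM. At 0 h kinase1 supplied 89.6, 64.2 and 70.3% of the summed kinase FPKM in B73 and 58.4, 57.1 and 17.2% in the mutant, and mutant replicate 3 is the one library at 0 h in which it was not the largest. In the 12 cold libraries kinase1 supplied 1.11 to 14.3%. The sum of the 4 kinases was 8.97 to 33.4 FPKM at 0 h and 109 to 3651 FPKM in the cold. In bulk leaf RNA, a change in the number of cells that express a gene and a change in RNA per cell cannot be told apart.

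The order of kinase2 and kinase3 differed among the cold groups. In all 6 cold libraries of B73, kinase2 was the largest of the family, with 52.1 to 68.7% of the summed FPKM. In all 3 mutant libraries at 24 h kinase3 was the largest, with 46.3 to 57.6%, and kinase2 supplied 30.4 to 37.7%. In all 3 mutant libraries at 48 h kinase2 was again the largest, with 56.6 to 72.6%. The share of kinase4 was 2.00 to 4.09% in the 24 h libraries of both genotypes, 3.61 to 7.06% in B73 at 48 h and 8.52 to 14.0% in the mutant at 48 h.

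**Figure D2:**
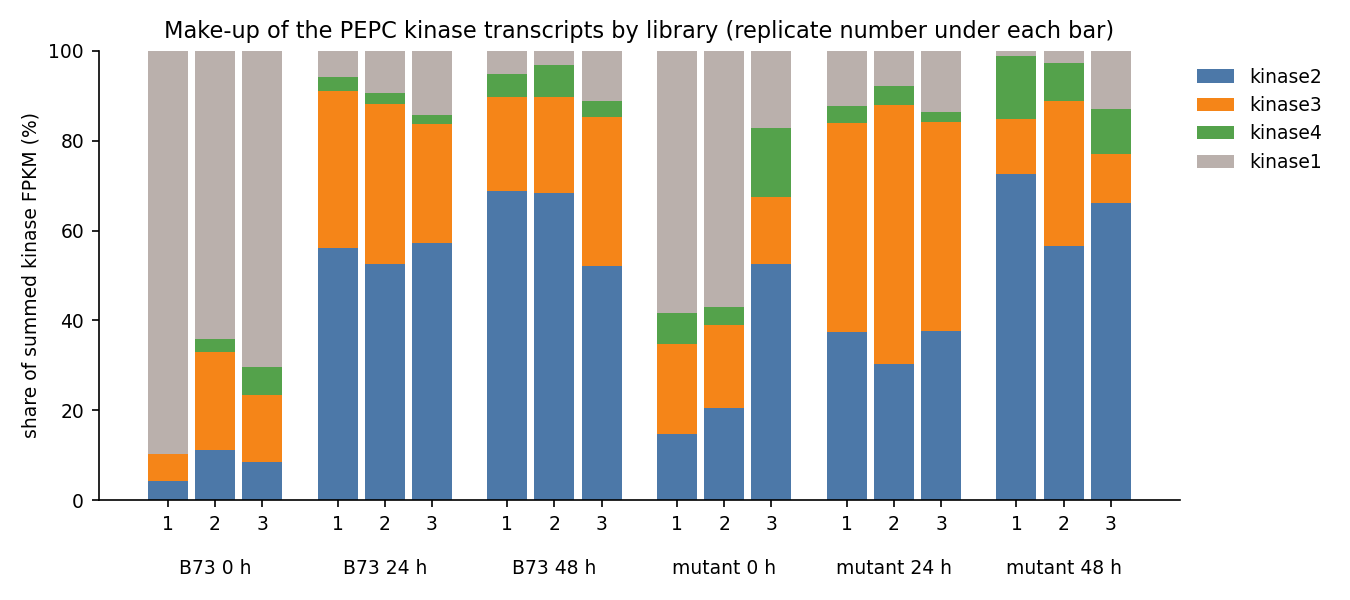
Share of each PEPC kinase in the summed FPKM of the 4 kinases (percent, stacked to 100), with a bar for each library and its replicate number beneath. The grey share of kinase1 is 17.2 to 89.6% at 0 h and 1.11 to 14.3% in the cold, and the orange share of kinase3 exceeds the blue share of kinase2 in all 3 mutant libraries at 24 h.

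Ratios of FPKM within a library do not depend on how libraries are scaled against each other. The tests used log2 ratios of (FPKM + 1), which do depend on it where levels are low, as at 0 h, so the same test without a pseudocount is given beside them. The FPKM ratio of kinase2 to kinase3 was 1.48, 1.60 and 2.17 in B73 at 24 h, from lowest to highest, against 0.527, 0.806 and 0.814 in the mutant. At 48 h it was 1.57, 3.21 and 3.26 in B73 and 1.76, 5.92 and 6.04 in the mutant. The groups did not overlap at 24 h, where the mutant's mean log2 ratio was lower by 1.29, and 0.1 was the p of the exact two-sided permutation test, the smallest that 3 against 3 libraries allow. Over all 3 times the mutant minus B73 difference was 0.06 (exact permutation test within times, 8000 regroupings, p = 0.865, 0.865 when adjusted over the 3 pairs of kinases), and 0.21 without a pseudocount (adjusted p = 0.644), so the direction at 24 h was not kept over the times. At 0 h the ratio was 0.511 to 0.696 in B73 and 0.730 to 3.53 in the mutant.

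In the cold, the ratio of kinase2 to kinase4 lay lower in every mutant library than in every B73 library of the same time. At 24 h it was 19.0, 20.8 and 28.7 in B73 and 7.42, 10.1 and 15.6 in the mutant, and at 48 h 9.68, 13.6 and 14.4 in B73 and 5.18, 6.64 and 6.67 in the mutant. With few reads behind kinase4, the ratio at 0 h was 1.37, 4.00 and 20.5 in B73 and 2.09, 3.43 and 5.20 in the mutant, and these ranges overlapped. The groups did not overlap at 24 or 48 h (exact permutation p = 0.1 at each, the smallest possible). Over the 3 times the mutant minus B73 difference of the log2 ratio was -0.58 (exact permutation p = 0.04, adjusted p = 0.12), which did not pass after adjustment. It was made up of 0.36 at 0 h, -1.14 at 24 h and -0.96 at 48 h. Without a pseudocount the value over the times was -0.88 (adjusted exact permutation p = 0.0844), with -0.53 at 0 h, so the sign at 0 h turned with the pseudocount. Over the leave-one-out fits the difference lay between -0.69 and -0.47, and without B73 0 h replicate 3, in which kinase4 had 15 reads, it passed (adjusted exact permutation p = 0.0285).

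The ratio of kinase3 to kinase4 fell into different ranges at 24 h and 48 h. It was 11.9 to 14.1 in B73 and 12.6 to 19.1 in the mutant at 24 h. At 48 h it was 3.02 to 9.20 in B73 and 0.876 to 3.77 in the mutant. The mutant minus B73 log2 difference over the times was -0.64 (exact permutation p = 0.0983, adjusted p = 0.147), and -1.08 without a pseudocount (adjusted p = 0.0844). At 0 h this ratio was 2.39 to 29.5 in B73 and 0.970 to 4.68 in the mutant.

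**Figure D3:**
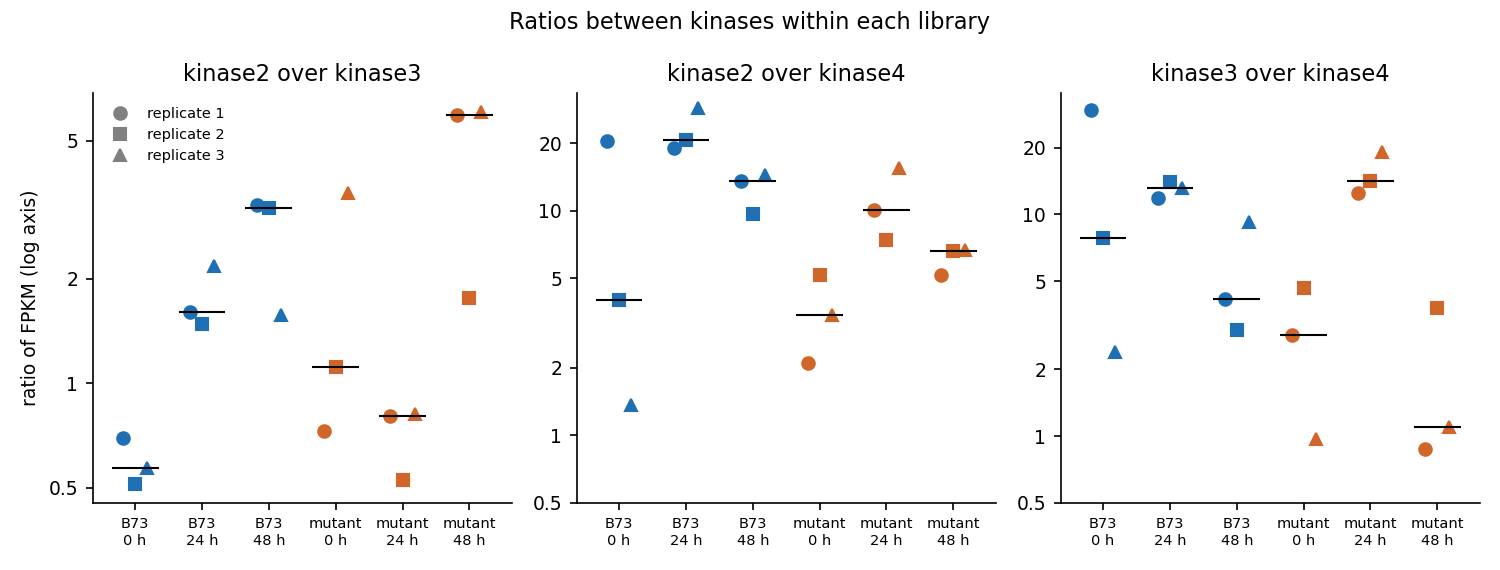
Ratio of FPKM between pairs of kinases (log axis) within each library, B73 in blue and the mutant in orange, with a marker shape for each replicate number and a line at the group median. At 24 h the kinase2 to kinase3 ratio is above 1 in the 3 B73 libraries and below 1 in the 3 mutant libraries, and the kinase2 to kinase4 ratio of the mutant lies under that of B73 at 24 and 48 h.

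The genotype was not used to pick the kinases, so mutant and B73 can be tested against each other. None of the 3 kinases passed in any of the 6 genotype comparisons (limma, adjusted p under 0.05). In those comparisons 0.212% of the 23141 tested genes passed at 0 h, 0.411% at 24 h, 0.333% at 48 h and 0.653% averaged over the times. For the genotype by time interaction 0.00432% passed at 24 h and 0.00864% at 48 h. Of the 18 intervals, 14 reach a 2-fold difference in both directions.

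At 0 h the kinase2 log2 difference was 0.95 (95% interval -1.13 to 3.02, adjusted p = 1). All 3 mutant libraries were above all 3 B73 libraries there, from 21 to 130 reads a library. How many of all tested genes separate in this way was not counted. At 24 h the kinase2 difference was -1.68 (-3.76 to 0.40, adjusted p = 0.591), and without mutant 24 h replicate 2 it was -0.41 (adjusted p = 0.957). At 48 h it was 0.88 (-1.20 to 2.96, adjusted p = 0.726), 2.10 without B73 48 h replicate 1 (adjusted p = 0.227) and -0.043 without B73 48 h replicate 3 (adjusted p = 1). The time course of kinase2 differed between genotypes by -2.63 at 24 h (-5.57 to 0.31, unadjusted p = 0.0761, adjusted p = 0.866) and by -0.07 at 48 h (adjusted p = 0.995). Without mutant 24 h replicate 2 the 24 h value was -1.36 (adjusted p = 0.992), and without B73 48 h replicate 1 the 48 h value was 1.15 (adjusted p = 0.773).

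For kinase4 the difference at 48 h was the nearest to the threshold. The mutant exceeded B73 by 1.84 on the log2 scale (-0.01 to 3.70, unadjusted p = 0.0515, adjusted p = 0.359), by 2.97 without B73 48 h replicate 1 (adjusted p = 0.0877) and by 0.85 without B73 48 h replicate 3 (adjusted p = 0.861). Its differences at 0 and 24 h were 0.59 and -0.54 (adjusted p = 1 and 0.903), its average over the times 0.63 (adjusted p = 0.731), and its interaction 1.25 at 48 h (adjusted p = 0.837), with a range of 0.26 to 2.38 when each library was left out. Without mutant 24 h replicate 2 the 24 h difference of kinase4 was 0.41 (adjusted p = 0.957).

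For kinase3 the differences were small against their error. They were 0.13, -0.39 and 0.24 at 0, 24 and 48 h (adjusted p = 1, 0.941 and 0.936) and -0.01 on average (adjusted p = 0.997). Without mutant 24 h replicate 2 the 24 h difference of kinase3 was 0.68 (adjusted p = 0.910), and without B73 48 h replicate 1 the 48 h difference was 1.27 (adjusted p = 0.471).

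**Figure D4:**
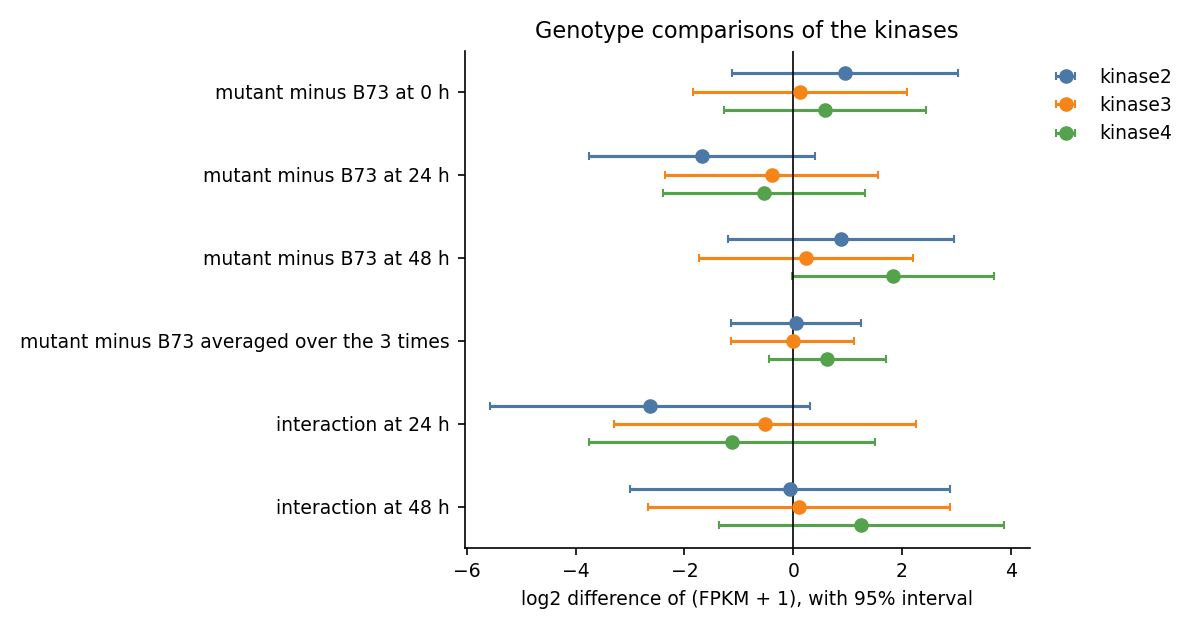
Log2 differences of (FPKM + 1) between genotypes for kinase2, kinase3 and kinase4, with points for the limma estimate and bars for its 95% interval. Every interval includes 0, and that of kinase4 at 48 h, from -0.01 to 3.70, has the end closest to it.

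Levels of the kinases also varied within groups, together in some groups and not in others. In the mutant at 48 h kinase3 was highest in replicate 2 (523 FPKM) and kinase1 in replicate 3 (173 FPKM). In mutant replicate 3 at 0 h kinase2 was the highest of its group (4.72 FPKM) and kinase3 the lowest (1.34 FPKM). Mutant 24 h replicate 2 had the lowest level of its group for all 4 kinases. Without it the mutant log2 difference of 24 h from 0 h was 6.82 in place of 5.55 for kinase2, 7.48 in place of 6.40 for kinase3 and 4.28 in place of 3.34 for kinase4. B73 48 h replicate 1 had the highest, and without it the B73 difference of 48 h from 0 h was 6.49 for kinase2, 4.86 for kinase3 and 3.74 for kinase4. Without it, too, the B73 difference of 48 h from 24 h was -1.69, -2.06 and -0.73 for kinase2, kinase3 and kinase4. Over the leave-one-out fits, the mutant difference of 48 h from 24 h lay between 0.82 and 2.955 for kinase2. It lay between -1.47 and 0.36 for kinase3 and between 1.83 and 3.32 for kinase4. The part of either library's position on the first principal component in these values was not tested.

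Across the 18 libraries, the Pearson correlation of log2(FPKM + 1) was 0.964 between kinase2 and kinase3, 0.964 between kinase2 and kinase4 and 0.899 between kinase3 and kinase4. Within the 12 cold libraries, which leaves out the step from 0 h, it was 0.737, 0.891 and 0.533. The correlation of kinase1 with kinase2, kinase3 and kinase4 was 0.761, 0.814 and 0.684 over all libraries and 0.643, 0.772 and 0.373 in the cold ones, so in the cold kinase3 was as close to kinase1 as to kinase2. Libraries of a group and time share their treatment, so these values describe the profiles and carry no p.

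Among named genes with a mean of at least 5 FPKM, those with profiles most like kinase2 were an E3 ubiquitin ligase described as MBR1 (Zm00001d039769, r = 0.977) and phosphate transporter protein7 (Zm00001d031875, r = 0.976). Next came a monogalactosyldiacylglycerol synthase 3 (Zm00001d018406, r = 0.974), an enzyme of galactolipid synthesis, and gibberellin 2-oxidase3 (Zm00001d043411, r = 0.974), an enzyme that inactivates gibberellins. Phosphate transporter protein7 went from a mean of 2.37 FPKM in B73 at 0 h to 219 and 374 FPKM at 24 and 48 h. Nearest to kinase3 were NAC-transcription factor 23 (Zm00001d012527, r = 0.967), a pentatricopeptide repeat protein (Zm00001d002539, r = 0.967), the anion channel SLAH3 (Zm00001d044181, r = 0.966) and kinase2 itself. NAC-transcription factor 23 had a mean of 16.0 FPKM in B73 at 0 h, 682 FPKM at 24 h and 394 FPKM at 48 h. In the mutant its mean went from 425 FPKM at 24 h to 622 FPKM at 48 h, whereas that of kinase3 went from 435 to 266 FPKM.

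Nearest to kinase4 were G2-like-transcription factor 4 (Zm00001d023402, r = 0.986), inorganic pyrophosphatase 2 (Zm00001d011734, r = 0.969) and SAUR41 (Zm00001d026308, r = 0.969). The same monogalactosyldiacylglycerol synthase as for kinase2 followed (r = 0.964). G2-like-transcription factor 4 had means of 2.17, 52.1 and 124 FPKM in B73 at 0, 24 and 48 h, and inorganic pyrophosphatase 2 of 23.9, 450 and 1175 FPKM. At r of 0.9 or more stood 346 genes for kinase2, 183 for kinase3, 363 for kinase4 and 5 for kinase1. These correlations take in the step from 0 h to the cold, and the chosen kinases were picked with their levels known. The counts therefore follow in part from that choice. Correlations with these named genes within the cold libraries alone were not computed.

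Transcripts of PEPC1, a form of the enzyme that the kinases act on, were already abundant before the cold. PEPC protein and its phosphorylation were not measured here. PEPC1 (Zm00001d046170), the form used in C4 photosynthesis, stood at 2291, 3637 and 7687 FPKM in B73 at 0 h, at 1519, 7734 and 8267 FPKM at 24 h and at 4795, 4444 and 5330 FPKM at 48 h. In the mutant it stood at 5310, 2119 and 3826 FPKM at 0 h, at 6708, 1912 and 4746 FPKM at 24 h and at 10489, 16772 and 6335 FPKM at 48 h. It passed in none of the comparisons with 0 h. The log2 differences at 24 and 48 h were 0.20 and 0.28 in B73 (adjusted p = 0.914 and 0.820) and 0.17 and 1.56 in the mutant (adjusted p = 0.918 and 0.108).

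Of 10 genes annotated as PEPC, 7 were tested. In B73, 1 rose and 0 fell at 24 h, and 2 rose and 1 fell at 48 h. In the mutant 0 passed at 24 h, and 3 rose and 0 fell at 48 h. The risen are 14.3 and 28.6% of these 7 in B73 and 0 and 42.9% in the mutant. Of all tested genes, 5.26, 12.7, 3.76 and 18.5% rose in the same order. The share of all tested genes that fell was 4.09% (B73, 24 h), 10.5% (B73, 48 h), 5.82% (mutant, 24 h) and 18% (mutant, 48 h). PEPC2 (Zm00001d016166) rose in the mutant at 48 h, from 10.5, 36.7 and 3.87 to 165, 89.0 and 174 FPKM (log2 difference 3.42, adjusted p = 0.00309). PEPC4 (Zm00001d020057) rose in B73 at 24 h, from 36.8, 28.4 and 41.4 to 159, 58.3 and 59.9 FPKM (adjusted p = 0.0483), and in the mutant at 48 h by 1.13 (adjusted p = 0.0241).

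A low PEPC described as a housekeeping isozyme (Zm00001d012702) rose at 48 h by 1.87 in B73 (adjusted p = 0.0389) and by 2.20 in the mutant (adjusted p = 0.0121), from means of 0.573 and 0.625 FPKM. An unnamed gene model on chromosome 8 whose best protein match is PEPC 1 rose by 2.54 in B73 at 48 h (adjusted p = 0.0205). PEPC3 (Zm00001d053453) is the one that fell, by 1.22 in B73 at 48 h (adjusted p = 0.0124). The PEPC described as PEPC 1 on chromosome 10 (Zm00001d024980) passed in no comparison with 0 h, with means of 69.6, 82.4 and 130 FPKM in B73. These calls rested on few libraries: the 1 call at 24 h was lost in 14 of the 18 leave-one-out fits, and at 48 h in B73 none passed without B73 0 h replicate 1. They also moved when each library was scaled to the same total of reads. Of the PEPC genes, 0 then rose in B73 at 24 h. At 48 h 1 rose and 1 fell in B73, and 2 rose and 1 fell in the mutant. PEPC genes are similar in sequence, and the sources used here do not say how reads shared between copies were counted.

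Of 71 other genes whose names or descriptions match enzymes and transporters of the C4 cycle, 41 were tested. Such a match does not tell the forms used in C4 photosynthesis from other copies. None passed at 24 h in either genotype by limma at an adjusted p under 0.05, and at 48 h 5 rose and 0 fell in B73 and 10 rose and 0 fell in the mutant. The risen are 12.2% and 24.4% of the list, against 12.7% and 18.5% of all tested genes, so the share in B73 is that of the background. Of all tested genes, 10.5% fell in B73 and 18% in the mutant at 48 h, against 0% of the list. A carbonic anhydrase described as chloroplastic (Zm00001d044095) rose from 12.8, 10.3 and 4.22 to 348, 105 and 67.1 FPKM in B73 (log2 difference 3.86, adjusted p = 0.00069). In the mutant it rose from 5.95, 12.5 and 2.92 to 294, 386 and 364 FPKM (5.60, adjusted p = 2.28e-05). An NADP-malic enzyme described as chloroplastic (Zm00001d037693) rose by 1.82 in B73 and by 4.93 in the mutant (adjusted p = 0.0284 and 2.94e-05). Its means at 0 h were low, at 5.38 FPKM in B73 and 2.22 FPKM in the mutant. A gene described as a chloroplast phosphoenolpyruvate/phosphate translocator (Zm00001d039674) rose by 3.30 in B73 and 4.02 in the mutant (adjusted p = 0.00593 and 0.000904).

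Alanine aminotransferase5 (Zm00001d014258) rose at 48 h in both genotypes, by 2.80 and 2.37 (adjusted p = 0.0105 and 0.0162). Alpha carbonic anhydrases 1 and 7 (Zm00001d049240, Zm00001d050011), glutamate-oxaloacetate transaminase4 (Zm00001d042685) and NADP-dependent malic enzyme6 (Zm00001d043601) passed in the mutant, with rises of 2.24, 2.11, 1.56 and 1.52 at 48 h, and missed the threshold in B73. None of these 8 genes differed between genotypes in the interaction at 48 h (lowest adjusted p = 0.335, for Zm00001d037693). With each library scaled to the same total of reads, the 48 h counts became 3 risen and 5 fallen in B73 and 4 and 4 in the mutant. That scaling moved the median log2 difference of all genes from -0.03 to -0.45 in B73 and to -0.64 in the mutant at 48 h. The count in B73 was 3 when any of B73 48 h replicate 1 or B73 0 h replicates 1 and 2 was left out, and that in the mutant was 6 when mutant 0 h replicate 3 was left out.

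Under the same rescaling the kinase differences stayed large. At 48 h against 0 h they were 7.27, 5.42 and 4.59 in B73 and 6.86, 5.25 and 5.42 in the mutant for kinase2, kinase3 and kinase4. Over all genes, the rescaling turned 2943 higher and 2431 lower calls in B73 at 48 h into 1897 and 4961. In the mutant at 48 h it turned 4274 higher and 4164 lower calls into 2314 and 8345. At 24 h it turned 1218 and 946 into 1105 and 1928 in B73, and 869 and 1347 into 806 and 1802 in the mutant.

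Calcium-dependent and SnRK kinases, the relatives of PEPC kinase that do carry regulatory parts, were called in both directions. Of 95 tested (169 listed), 14 rose and 3 fell in B73 at 24 h, and 29 rose and 4 fell at 48 h. In the mutant 8 rose and 6 fell at 24 h, and 42 rose and 12 fell at 48 h. The risen are 14.7 and 30.5% of the list in B73 and 8.42 and 44.2% in the mutant, against 5.26, 12.7, 3.76 and 18.5% of all tested genes. The fallen are 3.16, 4.21, 6.32 and 12.6%, against 4.09, 10.5, 5.82 and 18%. Their median log2 difference at 48 h was 0.47 in B73 and 0.60 in the mutant, against -0.03 over all genes in each. Scaled to read totals, the 48 h counts were 24 and 7 in B73 and 26 and 29 in the mutant. Without B73 48 h replicate 1 the total called in B73 at 48 h was 19, without B73 24 h replicate 2 that at 24 h was 5, and without mutant 24 h replicate 2 that in the mutant at 24 h was 27.

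PEPC kinase transcripts are known to follow the clock in several plants, and the sources used here do not give the sampling hours. Of 37 clock genes tested (69 listed), 6 rose and 1 fell in B73 at 24 h. At 48 h 16 rose and 1 fell. In the mutant 6 rose and 2 fell at 24 h, and 15 rose and 2 fell at 48 h. The risen are 16.2 and 43.2% of the list in B73 and 16.2 and 40.5% in the mutant, against 5.26, 12.7, 3.76 and 18.5% of all tested genes. The fallen are 2.70 and 2.70% in B73 and 5.41 and 5.41% in the mutant, against 4.09, 10.5, 5.82 and 18%. The median log2 difference of the list at 48 h was 1.07 in B73 and 0.80 in the mutant. Scaled to read totals, the counts at 48 h were 8 and 3 in B73 and 8 and 7 in the mutant. Without B73 48 h replicate 1 the total called in B73 at 48 h was 9, and without mutant 0 h replicate 1, mutant 0 h replicate 3 or mutant 24 h replicate 1 that in the mutant at 24 h was 3.

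In Arabidopsis, PEPC kinase genes are induced by phosphate starvation. Of 66 phosphate starvation genes tested (122 listed), 7 rose and 0 fell in B73 at 24 h and 15 rose and 5 fell at 48 h. In the mutant 4 rose and 4 fell at 24 h, and 23 rose and 6 fell at 48 h. The risen are 10.6 and 22.7% of the list in B73 and 6.06 and 34.8% in the mutant, against 5.26, 12.7, 3.76 and 18.5% of all tested genes. The fallen are 0 and 7.58% in B73 and 6.06 and 9.09% in the mutant, against 4.09, 10.5, 5.82 and 18%. The list's median log2 difference at 48 h was 0.82 in B73 and 0.64 in the mutant. Scaled to read totals, the 48 h counts were 8 and 11 in B73 and 15 and 13 in the mutant. Without B73 0 h replicate 1 the total called in B73 at 48 h was 7, and without mutant 24 h replicate 2 that in the mutant at 24 h was 18.

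The genes next to the kinases were counted in the same comparisons. Of the 10 nearest tested genes around kinase2 (5 on each side, 3249 to 855436 bases away), 0 rose in B73 at 24 or 48 h, 0 rose in the mutant at 24 h and 1 rose at 48 h. In the same order 0, 3, 3 and 4 of them fell. Around kinase3 2, 2, 0 and 2 of 10 rose and 0, 2, 1 and 0 fell. Around kinase4 1, 0, 0 and 0 of 10 rose and 1, 1, 0 and 2 fell. The shares of all tested genes that rose were, in the same order, 5.26, 12.7, 3.76 and 18.5%. Those that fell were 4.09, 10.5, 5.82 and 18%. With 10 neighbours a kinase, no difference from these shares is read.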

How the data were processed

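Leaf RNA of 18 libraries was measured as FPKM, which the authors deposited in one table for 50118 genes. The submitters' processing notes name HISAT2 2.0.5, DESeq2 1.20.0, fastp and featureCounts 1.5.0-p3. The sources used here do not give the genome build, strand setting or handling of shared reads. Each deposited FPKM, multiplied by gene length, was a whole multiple of 1 step per library (100% within 0.01 reads), which gave recovered reads. The total behind the FPKM scaling was 0.672 to 1.50 times the recovered total. This factor was 1.02 to 1.50 at 0 h and 0.672 to 0.759 in the mutant at 48 h. It was 0.677 in B73 48 h replicate 1, against 1.02 and 0.962 in the other libraries of that group. In mutant 24 h replicate 2 it was 1.36, against 1.08 and 0.935.

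From these values log2(FPKM + 1) was computed for the 23141 genes that reached 1 FPKM in 3 or more libraries, all 3 kinases among them. A model of 6 group means was fitted with limma 3.58.1 in R 4.3.3 (moderated test with trend), and p-values were adjusted by Benjamini-Hochberg over all these genes, with a threshold of 0.05. A result called higher or lower passed that threshold, apart from the kinases' time differences, which are descriptive. Ratios used log2(FPKM + 1) and an exact permutation of genotype within times. Code was tested on simulated data. Whether replicates came from separate growths is not stated, so p-values measure the spread between these samples. Libraries of a group were compared for repeats, and none matched within sampling noise.

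The kinases, gene lists and tests were chosen with earlier results of these data known. Lists were matched by patterns on names and descriptions. Stray matches were removed by description after the table was seen (11 tested genes from the C4 list, 7 from the clock list). Named genes were the annotated PEPC kinases, all tested PEPC genes, at most 8 called C4 genes by size of change, and the 4 named genes of at least 5 FPKM best correlated with each kinase. Promoters were not analysed here. Alternatives were a pseudocount of 0.1, no filter, read-total and quantile scaling, a replicate block, only the libraries compared, each library left out, limma-voom on recovered reads and ratios without a pseudocount, the last 2 chosen after seeing the data.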

Additional observations from a re-analysis of the deposited data

How the results depend on the processing

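In none of 465 tests of kinase2, kinase3 and kinase4 between genotypes, over all settings, was the adjusted p under 0.05 (lowest 0.0877, by limma). Signs near 0 turned. For kinase3 the 48 h genotype difference was -0.075 with read-total and -0.15 with quantile scaling, and its interaction at 48 h -0.17 and -0.22. The average difference of kinase2 was -0.12 with quantile scaling, and the 48 h interaction of kinase4 was -0.023 with limma-voom. With limma-voom the B73 differences of kinase4 from 0 h were 6.72 and 7.12 at 24 and 48 h, and with a pseudocount of 0.1 they were 6.21 and 6.60. Leaving out each library in turn, the genotype difference of kinase3 ranged from -0.11 to 0.38 at 0 h, from -1.15 to 0.68 at 24 h, from -0.41 to 1.27 at 48 h and from -0.26 to 0.35 on average. That of kinase2 ranged from -0.043 to 2.10 at 48 h and from -0.26 to 0.47 on average, and that of kinase4 from -1.12 to 0.41 at 24 h and from 0.85 to 2.97 at 48 h. Interactions ranged from -3.49 to -1.36 for kinase2 at 24 h, from -1.27 to 0.56 for kinase3 at 24 h, from -0.99 to 1.15 for kinase2 at 48 h and from -0.53 to 1.15 for kinase3 at 48 h. The log2 ratio difference ranged from -0.10 to 0.25 for kinase2 over kinase3 and from -0.69 to -0.47 for kinase2 over kinase4. The cause of these shifts was not tested.

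Calls over all genes moved more: with only the libraries compared, 95 genotype calls at 24 h became 1, 77 at 48 h became 4, and 2216 mutant calls at 24 h against 0 h became 587. Leaving out 1 library, the genotype calls ranged from 13 (without mutant 0 h replicate 1) to 56 at 0 h, from 23 (without B73 24 h replicate 3) to 202 (without mutant 24 h replicate 3) at 24 h, from 36 (without B73 48 h replicate 3) to 182 (without B73 48 h replicate 2) at 48 h, and from 88 (without B73 0 h replicate 2) to 188 in place of 151 on average. Without the filter 49 genotype calls at 0 h became 112. Calls in the lists, both directions together, also moved when a library was left out. In B73 at 24 h they ranged from 5 to 21 for calcium-dependent and SnRK kinases, from 3 to 7 for clock genes and from 2 to 11 for phosphate starvation genes. In B73 at 48 h these ranges were 19 to 40, 9 to 17 and 7 to 24, and in the mutant at 24 h 6 to 27, 3 to 8 and 2 to 18. Of 45 correlations between same-numbered libraries, 14 were over 0.1 (median 0.03, range -0.50 to 0.56). The highest were 0.56 and 0.52, between B73 and mutant at 0 h for replicates 2 and 3. Differently numbered libraries were not correlated, so whether replicate numbers pair the samples was not settled. With the replicate block 73 genes were called between genotypes at 48 h in place of 77. The planned edgeR test was not run, as the deposited values are FPKM. The setting with only the libraries compared has no value for the average over the times, which compares all 18. At 2 to 15 reads for kinase4 at 0 h in B73, its fold is poorly fixed.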
